A study of Mus musculus with 16 samples.

Results

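This account covers 9 genes that move sodium, potassium, chloride and water across epithelial membranes, measured by RNA sequencing in the whole inguinal mammary gland of lactating mice. They were taken by name from a list and make up 9 of the 22196 genes listed. The list was chosen by transport function with the counts of these libraries and their differences between groups known, so the calls below describe the genes and are no independent support for a pattern. The genes are Scnn1a, Scnn1b and Scnn1g (the subunits of the epithelial sodium channel), Aqp1, Aqp3 and Aqp5 (aquaporins), Slc12a2 (the sodium, potassium and chloride cotransporter NKCC1), Atp1b1 (a beta subunit of the sodium pump) and Kcnk5 (a potassium channel of the two-pore domain family). Of these, 8 passed the filter on low counts that left 12506 genes for testing, and Aqp5 did not.

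The 16 libraries fell into 4 groups of 4. NCD control glands came from mice on the diet labelled NCD without metformin, NCD metformin glands from mice on NCD with metformin (a drug that lowers blood glucose), HFD control glands from mice on a high fat diet in lactation without metformin, and HFD metformin glands from mice given both. All carry the age label postnatal day 16 and are from mid-lactation by the study's title. The labels give no strain, genotype, dose or sex, do not expand NCD, and are silent on whether each library is its own animal, so a p-value here reflects library-to-library spread that may be technical. The study asked how diet and metformin affect gene expression in the gland.

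In an epithelium the sodium pump in the basolateral membrane keeps sodium low and potassium high inside the cell, and the other proteins use these gradients. The epithelial sodium channel lets sodium in from the luminal side, NKCC1 loads chloride with sodium and potassium from the blood side, potassium channels return potassium and hold the membrane voltage, and aquaporins let water follow the solutes. In lactation the alveolar epithelium makes milk that is low in sodium and high in potassium relative to plasma, and water is drawn into milk mainly by lactose. In the whole gland these genes are also used by other cells, such as Aqp1 in capillary endothelium.

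Totals over genes ranged from 8649316 counts (HFD control 4) to 39156617, and 3 counts corresponded to 0.0766 to 0.347 CPM (counts scaled to library size, with TMM factors). Milk protein and mitochondrial transcripts took 72.3 to 79% of the counts. The epithelial markers Krt8, Krt18 and Epcam were present in all libraries, while the mean log2 CPM of 8 luminal markers was lowest in HFD control 4 (4.2) and NCD metformin 3 (4.33), where Elf5 was at 0, and lay between 5.21 and 5.72 in the other libraries. NCD control 3 stood apart in skeletal muscle markers, with a score of 7.25.

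Promoters from RefSeq (GRCm38.p6) were matched by symbol for 7 of the 9 genes. They run from 250 bases before the annotated start of the gene to 50 after it and are written 5′ to 3′ in the direction of transcription. The 4 shown belong to genes that the results turn on: Scnn1b and its neighbour Scnn1g on chromosome 7, and Aqp3 and Kcnk5. Capitals mark every match on either strand to TATAAA (the TATA box) or GGGCGG (the GC box, bound by SP1-like factors).
Scnn1b promoter, chr7:121864788-121865087, + strand: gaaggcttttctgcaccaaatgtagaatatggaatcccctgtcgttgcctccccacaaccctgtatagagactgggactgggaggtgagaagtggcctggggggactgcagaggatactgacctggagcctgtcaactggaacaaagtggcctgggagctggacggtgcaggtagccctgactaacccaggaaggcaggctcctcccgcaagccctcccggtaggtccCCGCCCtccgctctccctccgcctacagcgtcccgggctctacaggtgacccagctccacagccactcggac
Scnn1g promoter, chr7:121734229-121734528, + strand: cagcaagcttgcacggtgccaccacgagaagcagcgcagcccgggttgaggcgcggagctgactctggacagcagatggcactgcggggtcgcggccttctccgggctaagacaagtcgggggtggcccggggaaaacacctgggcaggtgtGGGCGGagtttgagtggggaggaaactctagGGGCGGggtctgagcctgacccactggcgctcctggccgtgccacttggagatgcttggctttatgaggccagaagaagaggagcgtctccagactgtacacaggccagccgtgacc
Aqp3 promoter, chr4:41098134-41098433, − strand: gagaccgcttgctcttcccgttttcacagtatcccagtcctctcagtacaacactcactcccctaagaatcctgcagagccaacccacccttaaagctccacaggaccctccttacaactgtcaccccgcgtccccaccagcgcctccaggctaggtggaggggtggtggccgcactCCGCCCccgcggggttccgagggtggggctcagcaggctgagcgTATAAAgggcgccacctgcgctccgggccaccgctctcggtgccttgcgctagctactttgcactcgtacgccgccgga
Kcnk5 promoter, chr14:20181733-20182032, − strand: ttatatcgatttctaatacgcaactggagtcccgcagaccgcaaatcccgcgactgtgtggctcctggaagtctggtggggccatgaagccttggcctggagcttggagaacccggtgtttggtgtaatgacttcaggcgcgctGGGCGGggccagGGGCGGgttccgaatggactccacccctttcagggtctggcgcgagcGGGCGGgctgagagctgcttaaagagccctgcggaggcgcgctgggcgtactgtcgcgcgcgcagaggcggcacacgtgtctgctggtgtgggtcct

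The motif GGGCGG was found in 7 of the 7 promoters and in 35.7% of all 32851 promoters of this length in the RefSeq table. Scnn1b has 1 match, beginning 22 bases before the start, Scnn1g has 2 (98 and 67 bases before), Aqp3 has 1 (73 bases before) and Kcnk5 has 3 (106, 94 and 47 bases before). TATAAA was found in 1 of the 7, that of Aqp3, beginning 29 bases before the start, and in 13.6% of all promoters. The pattern TTCNNNGAA, the core of the STAT5 motif, was in 0 of the 7 and 8.3% of all promoters, and AGAACA, a site element bound by glucocorticoid and mineralocorticoid receptors, in 0 of the 7 and 19% of all. CCAAT was in 1 of the 7 (Atp1b1) and 37.4% of all. Both strands were searched, and the searched motifs do not contain one another. A match is a description of these letters and not a shown site. The GC content was 61.7% for Scnn1b, 64.7% for Scnn1g, 64% for Aqp3 and 63.7% for Kcnk5, and 75.3 to 81.7% of all promoters had a lower value than these 4.

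Scaled to coding length (TPM), the genes spanned a wide range of levels. Aqp1 was highest, with a mean of 22.8 ± 6.49 TPM over the 16 libraries (SD, n = 16), followed by Kcnk5 at 13.2 ± 11 and Aqp3 at 9.6 ± 6.29. Scnn1b was next at 3.53 ± 0.618 TPM, then Slc12a2 at 1.03 ± 0.347. The lowest were Atp1b1 at 0.486 ± 0.146, Scnn1g at 0.418 ± 0.136, Scnn1a at 0.322 ± 0.0997 and Aqp5 at 0.0727 ± 0.0954 TPM. Neighbours in this order were not always apart: Kcnk5 was above Aqp3 in 8 of 16 libraries, Atp1b1 above Scnn1g in 10, and Scnn1g above Scnn1a in 12. Aqp1 was above Kcnk5 in 15, Aqp3 above Scnn1b in 14, and Scnn1b above Slc12a2 in 16 of 16.

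**Figure D1:**
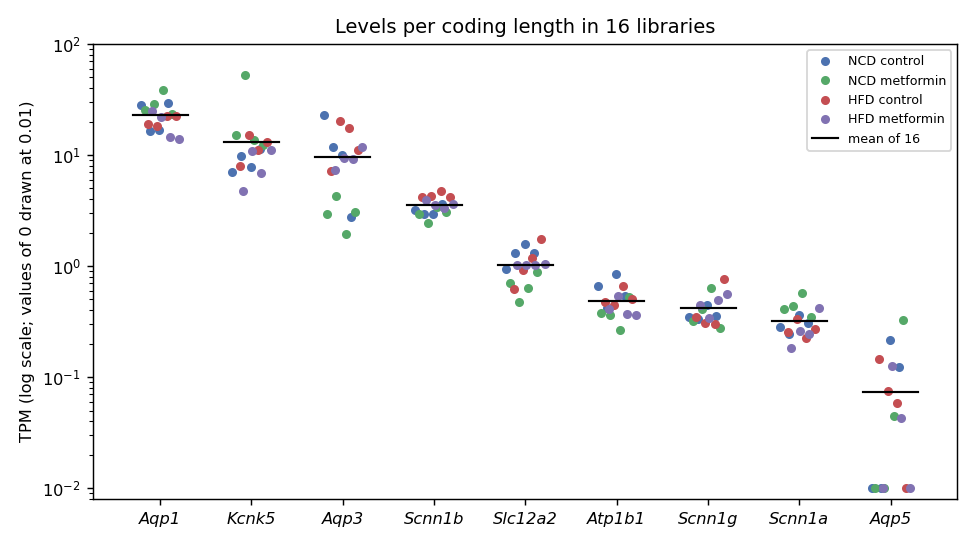
Level of each of the 9 genes in TPM (log axis, values of 0 drawn at 0.01), with 1 point per library coloured by group and a line at the mean of 16 libraries. Aqp1, Kcnk5 and Aqp3 are the highest, Scnn1b is the highest of the sodium channel subunits, and 7 Aqp5 points lie at 0.

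The 3 sodium channel subunits, which assemble together in the channel, did not have like transcript levels. Scnn1b (chromosome 7, 121865038 to 121918514, + strand, GRCm38, ENSMUSG00000030873.9) exceeded Scnn1a by a median of 11.9 times in TPM, from 5.57 times in NCD metformin 2 to 21.5 times in HFD metformin 1. It exceeded Scnn1g by a median of 8.89 times, from 5.34 to 15.8. Scnn1g (chromosome 7, 121734479 to 121768475, + strand, ENSMUSG00000000216.8) ends 96.6 kb before Scnn1b begins, so neighbouring genes on one strand had unlike levels. Scnn1a, the alpha subunit, which the channel needs to conduct (chromosome 6, 125320659 to 125344943, + strand, ENSMUSG00000030340.16), had 154 to 298 counts summed over each group. Its counts were shared among 4 of its 6 annotated transcripts in a way that changed from library to library, the main one taking 0 to 100% of them. Of Scnn1b's counts 98.8 to 100% belonged to 1 transcript in each library.

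The diet comparisons ask what the high fat diet did to the gland. Scnn1b was the single gene of the 9 called in them (adjusted p under 0.05), higher on HFD. The NCD control libraries were at 14.6, 14.5, 13.8 and 16.7 CPM and the NCD metformin libraries at 14.9, 12.7, 17 and 16.1. The HFD control libraries were at 23.1, 24.2, 26.2 and 20.4 CPM and the HFD metformin libraries at 23.2, 20.3, 22.3 and 19.4. Each HFD library was above each NCD library, the lowest HFD value being 19.4 and the highest NCD value 17 CPM. The group means were 14.9 ± 1.26, 15.2 ± 1.87, 23.5 ± 2.41 and 21.3 ± 1.76 CPM in that order (SD, n = 4).

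Scnn1b was 1.58-fold higher on HFD without metformin (log2 fold change 0.66 ± 0.11 SE, edgeR quasi-likelihood test, adjusted p = 0.0348), and 1 of 8 tested genes of the list was called, higher, where 0.064% of all genes were called and 0.016% higher. Its groups did not overlap there, as in 4.12% of all genes. With metformin it was 1.4-fold higher (0.49 ± 0.11, edgeR adjusted p = 0.0382), again 1 of 8 beside 2.36% of all genes, 1.86% higher, and without overlap, as in 10.2%. Averaged over treatment the log2 fold change was 0.57 ± 0.08 (edgeR adjusted p = 0.00323, called 1 of 8 beside 0.936% of all genes, 0.52% higher), and groups without overlap occurred in 0.136% of all genes. The list was chosen with these comparisons known, and they share libraries, so nothing is read from these shares. Scnn1b's diet effects with and without metformin differed by a log2 value of -0.17 ± 0.15 (edgeR adjusted p = 0.754 for the interaction), so a difference between them was not shown.

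The averaged call was made under every one of the 22 alternatives, leave-one-out ones included. The separate calls were not: without metformin the call ended when NCD control 1, 2 or 3, NCD metformin 1 or HFD control 1, 2 or 3 was left out, with log2 fold changes of 0.60 to 0.71 over all 16 leave-one-out fits and an adjusted p of up to 0.205 (edgeR). With metformin it ended without NCD control 2, NCD metformin 1, 2 or 3, HFD control 3 or any of HFD metformin 1, 2, 3 and 4, with log2 fold changes of 0.40 to 0.53. It also ended with no filter on low counts (edgeR adjusted p = 0.0508), with only the groups compared (0.0812) and with counts rebuilt from TPM (0.0843), and the call without metformin ended with only the groups compared (0.0767). The library numbers in the titles leave a gap after 10, and the mean without metformin was 14.3 (NCD control, n = 3) and 23.1 CPM (HFD control, n = 1) up to number 10, and 16.7 (n = 1) and 23.6 CPM (n = 3) from number 14. The difference was in the same direction on both sides of the gap. A fit with a term for the gap gave 0.61 without metformin, no longer called (edgeR adjusted p = 0.0789), and 0.47 with it, still called (0.0379). With scaling by library size alone the median of all genes moved by -0.16 without metformin and -0.18 with it, and Scnn1b's differences were 0.495 and 0.305, against these shifts. Neither was called under that scaling (edgeR adjusted p = 0.0647 and 0.0902).

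The luminal epithelial marker score did not follow this order of groups. Its mean on NCD was 5.47 ± 0.17 without and 5.21 ± 0.59 with metformin, and on HFD 5.19 ± 0.70 without and 5.62 ± 0.04 with it (SD, n = 4 each). The score was lowest in HFD control 4 (4.2) and NCD metformin 3 (4.33), where Elf5, 1 of its 8 genes, was not detected. Averaged over treatment, 6 of these 8 genes were higher on HFD and 2 lower, with a median log2 fold change of 0.12. Called were 0 of the 8, beside 0.936% of all genes. The part of this score in the Scnn1b difference was not tested. With group means removed, Scnn1b and this score had an r of -0.05 (p = 0.89, permutation test, adjusted p = 0.952) and a rho of -0.12 (p = 0.696) over 16 libraries, and an r of 0.33 without NCD metformin 2 and 3.

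**Figure D2:**
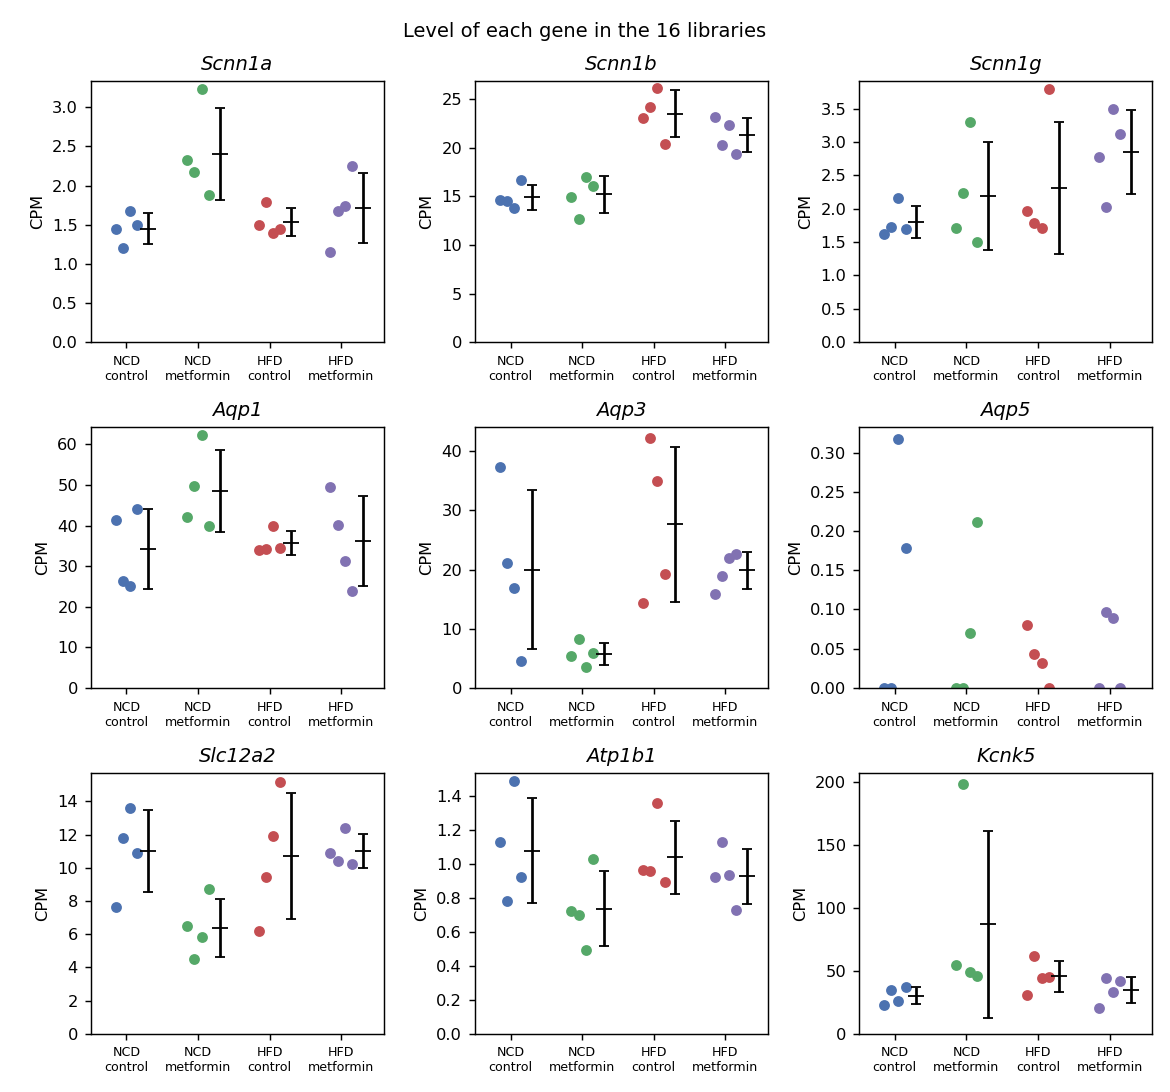
Level of each gene in CPM (linear axes from 0), 1 point per library in each of the 4 groups. Black marks give the group mean and SD (n = 4), which are left out for Aqp5, where libraries are at 0. Scnn1b lies between 12.7 and 17 CPM in the 8 NCD libraries and between 19.4 and 26.2 in the 8 HFD libraries.

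The other 2 sodium channel subunits were not called for diet. Scnn1g, the gamma subunit, was at 1.62, 1.72, 2.16 and 1.7 CPM in NCD control and 1.96, 1.79, 1.71 and 3.79 in HFD control. Its ranges overlapped, and only HFD control 4, the shallowest library, was above 2.16 among these 8. The log2 fold change was 0.30 ± 0.28 (edgeR adjusted p = 0.939), and 0.01 at the lowest when a library was left out. With metformin it was 0.38 ± 0.28, and averaged 0.34 ± 0.20. For Scnn1a the averaged diet difference was -0.20 ± 0.15 (edgeR adjusted p = 0.551). For Scnn1g the SE leaves room for no change and for a change of the size seen in Scnn1b. No test of the subunits against each other was run.

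Metformin against control on NCD had more called genes of the list than any other comparison. Of the 8 tested genes, 3 were called, Scnn1a and Kcnk5 higher and Aqp3 lower, and 10% of all genes were called, 4.01% higher and 6.03% lower. On HFD 0 of 8 were called, beside 0.168% of all genes. The interaction was called in 0 of 8, where 0 of 12506 genes were called by edgeR, 1243 had an unadjusted p under 0.05 and DESeq2 called 22, none of them among the 8.

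**Figure D3:**
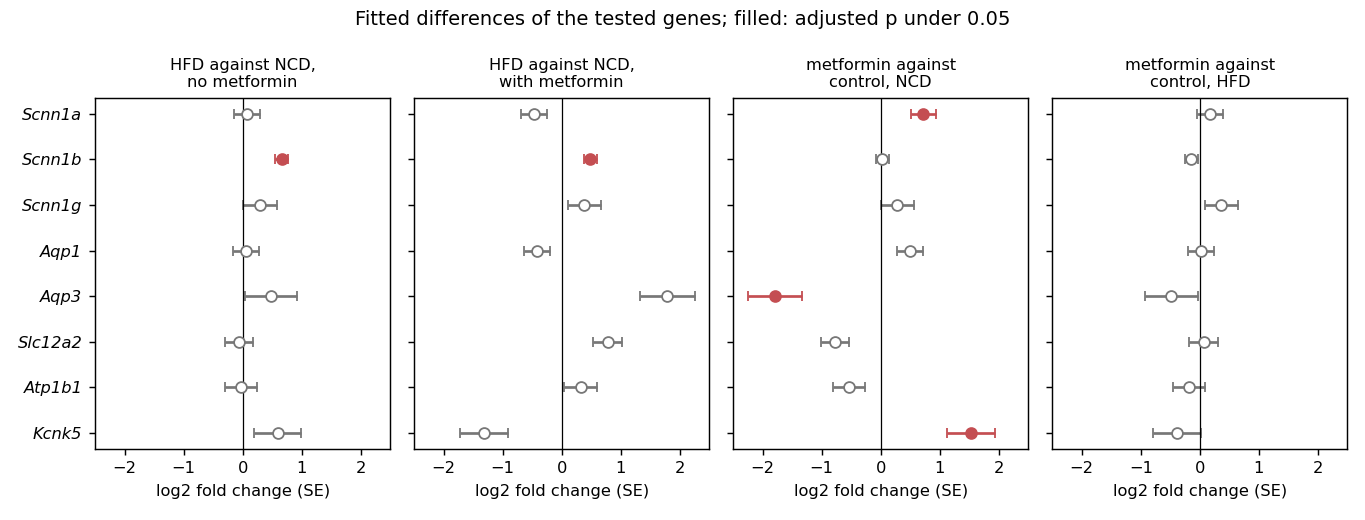
Log2 fold change of the 8 tested genes with its SE in the 4 comparisons of single groups. Filled points have an adjusted p under 0.05: Scnn1b in both diet comparisons, and Scnn1a, Aqp3 and Kcnk5 in metformin against control on NCD. The 4 comparisons share libraries in pairs.

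Scnn1a was at 1.44, 1.2, 1.68 and 1.49 CPM among NCD controls and at 2.32, 2.17, 3.23 and 1.88 in NCD metformin. The lowest metformin value was above the highest control value, and groups did not overlap in 18.6% of all genes in this comparison. The log2 fold change was 0.72 ± 0.21, a 1.64-fold higher level (edgeR adjusted p = 0.0432). The call ended in 15 of 23 alternatives, among them the leaving out of NCD control 1, 2, 3 or 4, of NCD metformin 1, 2 or 3, of HFD control 1 or 3 and of HFD metformin 2, with log2 fold changes of 0.54 to 0.81. On HFD the levels were 1.5, 1.79, 1.39 and 1.45 without and 1.15, 1.67, 1.74 and 2.25 CPM with metformin, and overlapped (0.17 ± 0.22, edgeR adjusted p = 0.792). Up to title number 10 the means on NCD were 1.44 CPM without (n = 3) and 2.25 with metformin (n = 2), and from number 14 they were 1.49 (n = 1) and 2.55 CPM (n = 2). A fit with a term for the gap gave 0.66, no longer called (edgeR adjusted p = 0.0641), and the call also ended with library size only (0.0762), no filter (0.0643), only the groups compared (0.0558) and counts rebuilt from TPM (0.147). Scnn1b and Scnn1g were not called with metformin on NCD, at log2 fold changes of 0.03 ± 0.11 and 0.28 ± 0.28.

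Kcnk5 encodes TASK-2, a potassium channel that opens at alkaline pH and is found in kidney and other transporting epithelia (chromosome 14, 20140057 to 20181809, − strand, GRCm38, ENSMUSG00000023243.9). The NCD controls were at 23, 34.9, 25.9 and 37 CPM and the NCD metformin libraries at 54.7, 198, 48.8 and 46.1. NCD metformin 2 was far above the other 3 libraries of its group, and all 4 were above all 4 controls, as in 18.6% of all genes in this comparison. The log2 fold change was 1.52 ± 0.41 (edgeR adjusted p = 0.0305), a 2.87-fold higher level. Without NCD metformin 2 it was 0.72 (edgeR adjusted p = 0.113), and the call also ended without NCD control 1, 2 or 3, with only the groups compared (0.0601) and with counts rebuilt from TPM (0.0521). Up to title number 10 the means were 28 CPM without (n = 3) and 126 with metformin (n = 2), and from number 14 they were 37 (n = 1) and 47.4 CPM (n = 2). On HFD the levels were 31.1, 61.6, 44.1 and 45.4 CPM without and 20.4, 44, 32.8 and 41.8 with metformin, and overlapped (-0.39 ± 0.40, edgeR adjusted p = 0.731). The difference between these 2 metformin effects was -1.91 ± 0.57 on the log2 scale (edgeR unadjusted p = 0.00397, adjusted p = 0.369) and did not pass the threshold. HFD metformin was below NCD metformin in Kcnk5 without overlap, by a log2 value of -1.32 ± 0.41 (edgeR adjusted p = 0.0883, not called). Groups did not overlap in 10.2% of all genes there.

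Aqp3 forms a channel for water and glycerol, found in the basolateral membrane of many epithelia (chromosome 4, 41092722 to 41098183, − strand, GRCm38, ENSMUSG00000028435.8). The NCD controls were at 37.3, 21.2, 16.9 and 4.62 CPM and the NCD metformin libraries at 5.45, 8.19, 3.55 and 5.82. Control 4 was inside the metformin range, and the other 3 controls were above it. The log2 fold change was -1.79 ± 0.46, a level 0.288 times that of control (edgeR adjusted p = 0.027). Without NCD control 1 it was -1.30 (edgeR adjusted p = 0.0907), and the call also ended without NCD control 2 or NCD metformin 1, 2 or 3 and with only the groups compared (0.0559). Up to title number 10 the means were 25.1 CPM without (n = 3) and 6.82 with metformin (n = 2), and from number 14 they were 4.62 (n = 1) and 4.68 CPM (n = 2), so the difference was not seen from number 14. A fit with a term for that gap gave -1.69 (edgeR adjusted p = 0.0479). HFD control was at 14.3, 42.2, 34.9 and 19.3 CPM and HFD metformin at 15.9, 18.9, 21.9 and 22.7, which overlapped (-0.48 ± 0.44, edgeR adjusted p = 0.691). Averaged over diet, Aqp3 was lower with metformin by a log2 value of -1.14 ± 0.32 (edgeR adjusted p = 0.0331), 1 of 8 beside 11.4% of all genes called and 5.57% called lower. That call ended without NCD control 1 or 2, NCD metformin 1 or 3, HFD control 2 or 3 or HFD metformin 2 or 3, and with counts rebuilt from TPM (edgeR adjusted p = 0.0529).

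With metformin, Aqp3 was 3.46-fold higher on HFD than on NCD without overlap (log2 fold change 1.79 ± 0.46, edgeR adjusted p = 0.0516), just above the threshold, while without metformin it was 0.48 ± 0.44. Between the diets with metformin, groups did not overlap in 10.2% of all genes. The metformin effects on the 2 diets differed by 1.31 ± 0.63 (edgeR adjusted p = 0.499). On NCD the skin and sweat or salivary gland marker list was, like Aqp3, lower with metformin by group mean. Its score was the mean log2 CPM of the 6 tested genes of 8. It had a mean of 1.92 ± 0.85 for the NCD control libraries and -0.10 ± 0.50 for those of NCD metformin (SD, n = 4). On HFD the mean score was 0.58 ± 0.65 without and -0.30 ± 0.49 with metformin (SD, n = 4). The HFD metformin mean was the lowest of the groups. Aqp3 was at 15.9 to 22.7 CPM there and at 3.55 to 8.19 in NCD metformin. NCD control 4, where Aqp3 was at 4.62 CPM, had the lowest score of the NCD controls (1.13) but their highest summed level (248 CPM). The summed level was 109 to 248 CPM in NCD control and 5.68 to 34.1 in NCD metformin. Prol1 and Pip, secreted proteins, made up most of this sum, at means of 135 and 33.8 CPM in NCD control and 13.7 and 1.59 in NCD metformin. The skin genes were low, and their means were also lower in the latter group. Krt10 was at 0.898 and 0.543 CPM and Lor at 0.364 and 0.232. Flg was at 0.346 (SD 0.693) and 0.00835 CPM, and Krt1 at 0.0488 (SD 0.0975) and 0. Flg and Krt1 did not pass the filter and their NCD control SDs exceeded the means, so no group difference is read from them. Across the 16 libraries with group means removed, Aqp3 and this score had an r of 0.41 (p = 0.271, permutation test, adjusted p = 0.952, rho 0.27). Their part in the Aqp3 difference was not tested.

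Slc12a2, NKCC1, lies just on the other side of the threshold (chromosome 18, 57878678 to 57946821, + strand, GRCm38, ENSMUSG00000024597.11). It was at 7.65, 11.8, 13.6 and 10.9 CPM among NCD controls and at 6.52, 4.48, 5.8 and 8.7 in NCD metformin. The ranges overlapped at NCD control 1 and NCD metformin 4. The log2 fold change was -0.78 ± 0.24 (edgeR adjusted p = 0.0511), and the value passed the threshold in 5 of 23 alternatives, DESeq2 (adjusted p = 0.0199), the term for the gap in title numbers (-0.88, edgeR adjusted p = 0.0339), and the leaving out of HFD control 1 or 4 or of NCD metformin 4. With metformin it was 0.78 ± 0.24 higher on HFD than on NCD (edgeR adjusted p = 0.0927), without overlap, as in 10.2% of all genes. HFD metformin was at 10.9, 10.4, 12.4 and 10.2 CPM. Neither difference of Slc12a2 passed the main test.

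Atp1b1, a beta subunit of the sodium pump (chromosome 1, 164437109 to 164458355, − strand, ENSMUSG00000026576.12), had low counts, 8 to 47 per library and 88 to 141 summed over a group. It was at 1.13, 0.78, 1.49 and 0.925 CPM among NCD controls and 0.724, 0.702, 0.492 and 1.03 in NCD metformin, which overlapped (log2 fold change -0.54 ± 0.27, edgeR adjusted p = 0.205). Another beta subunit, Atp1b3, was at a higher level, with a median of 9.88 TPM, and exceeded Atp1b1 by a median of 21.9 times (13.5 to 45.4 times) in TPM. In 16 of 16 libraries Atp1b3 was above Atp1b1. Atp1b3 was not called in any of the 4 comparisons of single groups, where its log2 fold changes ran from -0.08 ± 0.09 (HFD against NCD without metformin, edgeR adjusted p = 0.952) to 0.06 ± 0.09 (metformin on HFD, edgeR adjusted p = 0.827).

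Aqp1, the water channel of endothelium and other tissues (chromosome 6, 55336432 to 55348555, + strand, ENSMUSG00000004655.5), was not called in any comparison. The NCD controls were at 41.3, 26.4, 25.2 and 44.2 CPM and the NCD metformin libraries at 42.1, 49.7, 62.4 and 39.9. On HFD the controls were at 33.9, 34.3, 40 and 34.5 CPM and the metformin libraries at 49.5, 40.2, 31.3 and 24, and all 4 groups overlapped. The difference with metformin on NCD was 0.50 ± 0.22 (edgeR adjusted p = 0.148). With group means removed, Aqp1 rose and fell with the score of 10 endothelial markers, at an r of 0.84 (p = 0.00021, adjusted p = 0.0227) and a rho of 0.85 (p = 0.00031, adjusted p = 0.0335) over 16 libraries, by permutation within groups. It was the 1 relation of 108 in this family that passed the adjustment. Leaving out HFD metformin 1 and 4, the libraries farthest from the median of the within-group Aqp1 values, gave an r of 0.75. The mean endothelial score of the NCD control, NCD metformin, HFD control and HFD metformin groups was 2.78 ± 0.16, 3.09 ± 0.28, 2.84 ± 0.08 and 2.93 ± 0.23 (SD, n = 4 each). In whole tissue, fewer cells of a type and less RNA per cell cannot be told apart.

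**Figure D4:**
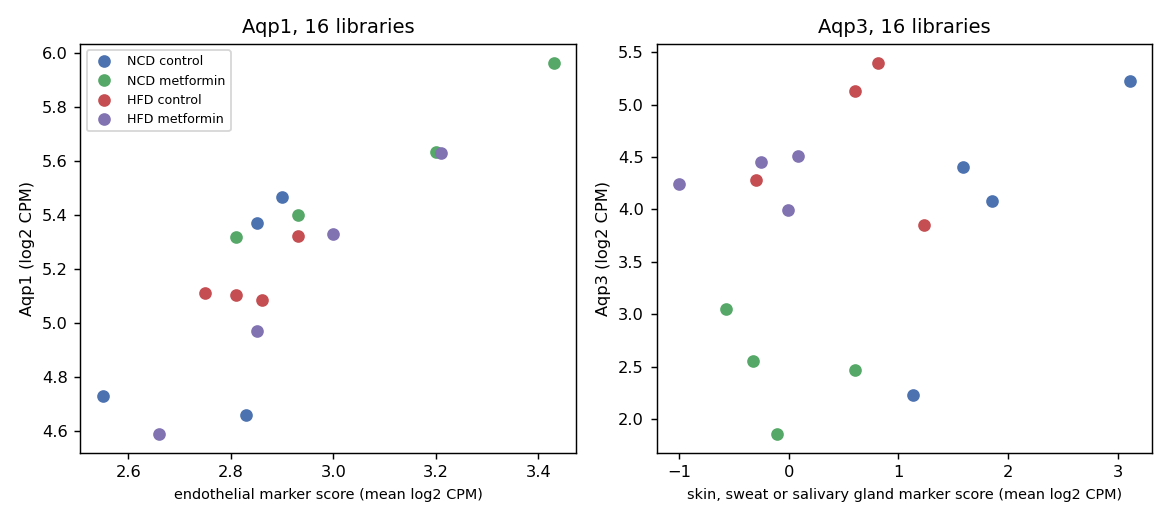
Aqp1 (log2 CPM) against the endothelial marker score, and Aqp3 against the skin, sweat or salivary gland marker score (mean log2 CPM of each list), 1 point per library coloured by group. Aqp1 rises with the endothelial score (r 0.84 over 16 libraries with group means removed), and no group was assessed alone. For Aqp3 the NCD metformin libraries lie low and NCD control 4 lies with them at 4.62 CPM.

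Aqp5, an aquaporin of secretory glands such as salivary glands (chromosome 15, 99590782 to 99594829, + strand, ENSMUSG00000044217.17), was barely measured. It had 0 to 10 counts per library and 7 of 16 libraries were at 0. Summed over the 4 libraries of a group, NCD control had 16 counts, NCD metformin 11, HFD control 5 and HFD metformin 5. These levels are near those that the floor of 3 counts allows, so no difference between groups was detectable at this depth.

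The genes whose log2 CPM followed each gene most closely over the 16 libraries were found by Pearson r, and are given as a description of libraries that share groups and depth. For Aqp3 these were Cpt1a (0.93), Slc25a34 (0.92) and Ddhd2 (0.90), and for Slc12a2 Kitl (0.94), Met (0.92) and Lpar1 (0.91). Scnn1b was most like F11r (0.85), Mmp12 (0.84) and Iqcd (0.82), and Kcnk5 most like Prdm11 (0.80), Gpt2 (0.80) and Sh3bp5l (0.79). Scnn1a was most like Sae1, Letm1 and Rpap3 (0.89, 0.87 and 0.86), Aqp1 most like Wwc1, Sparcl1 and Arap3 (0.87, 0.86 and 0.84), Scnn1g most like Mecom, Coq8a and Pdk2 (0.83, 0.81 and 0.76) and Atp1b1 most like Malt1, Cemip2 and Wsb1 (0.81, 0.79 and 0.78).

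Other transport genes were looked at in 8 lists holding 82 genes, of which 52 passed the filter. With metformin on NCD, 2 were called higher and 5 lower, with a median of -0.20 against 0 for all genes, and 35 of 52 values were negative. Over all genes 10% were called, 4.01% higher and 6.03% lower, so the 7 of 52 are near that share. Among sodium channel regulators, 3 of 11 were lower and 0 higher: Nedd4l (-0.68 ± 0.19, edgeR adjusted p = 0.0332) and Nedd4 (-0.67 ± 0.21, 0.0484), ubiquitin ligases of which Nedd4l is known to remove the channel from the membrane, and Nr3c1 (-0.92 ± 0.28, 0.048), the glucocorticoid receptor. Nedd4l was at 28.8, 17.3, 29.6 and 15.8 CPM among NCD controls and at 13.4, 15.2, 13.6 and 14.9 in NCD metformin. All 4 metformin values were below all 4 controls, though NCD control 4 was close to them. Groups did not overlap in 18.6% of all genes in this comparison. The Nedd4l, Nedd4 and Nr3c1 calls ended in 8, 18 and 17 of 23 alternatives.

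WNK and SPAK kinases act on NKCC1 and related cotransporters. The list named for them had 7 tested genes, not all of them kinases: Wnk1, Wnk2, Wnk4, Stk39, Oxsr1, Klhl2 and Cul3. Among these, Wnk1 was lower (-0.78 ± 0.19, edgeR adjusted p = 0.0224) and Wnk4 higher (0.91 ± 0.23, 0.0251). Wnk4 was at 0.894, 1.43, 0.762 and 1.4 CPM among NCD controls and at 2.06, 2.47, 1.97 and 1.95 in NCD metformin. Its groups did not overlap, as in 18.6% of all genes, and its level was low. Fxyd3, a small regulator of the sodium pump, was higher (0.50 ± 0.15, edgeR adjusted p = 0.0484), 1 of the 10 tested pump subunits and FXYD proteins. Clcn3, a chloride transporter of intracellular membranes, was lower (-0.65 ± 0.18, 0.0364), 1 of 12 in its list. The call ended in 3 of 23 alternatives for Wnk1, 3 of 22 for Wnk4, 19 of 23 for Fxyd3 and 6 of 23 for Clcn3.

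The other lists had 0 called genes in that comparison. The lowest p in each was for Aqp9 among 2 tested aquaporins (-0.30 ± 0.15, edgeR adjusted p = 0.203), Slc12a9 among 5 cotransporters (-0.37 ± 0.13, 0.0704) and Kcnn4 among 5 potassium channels (0.49 ± 0.26, 0.231), and none of 5 acid sensing channels passed the filter. On HFD 0 of 52 were called with metformin, beside 0.168% of all genes, with a median of -0.01. Averaged over diet, 4 of 52 were lower with metformin, Wnk1 (-0.54), Wnk2 (-0.996), Clcn3 (-0.50) and Aqp9 (-0.45, edgeR adjusted p = 0.0177), and 2 were higher, Fxyd3 (0.49) and Fxyd6 (1.01). Over all genes 11.4% were called in that comparison, 5.57% lower, so the 6 of 52 are near that share. The Fxyd3 and Aqp9 calls were made in 22 of 22 alternatives, while that of Fxyd6 ended in 14 of 22. The high fat diet gave 0 called without metformin and 1 with it, Slc26a2, a sulfate transporter (0.92 ± 0.23, edgeR adjusted p = 0.0489), and 0 in the averaged diet comparison. The shares of all genes called were 0.064% without metformin, 2.36% with it and 0.936% averaged, so the 1 of 52 is near its share. The Slc26a2 call ended in 19 of 23 alternatives.

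**Figure D5:**
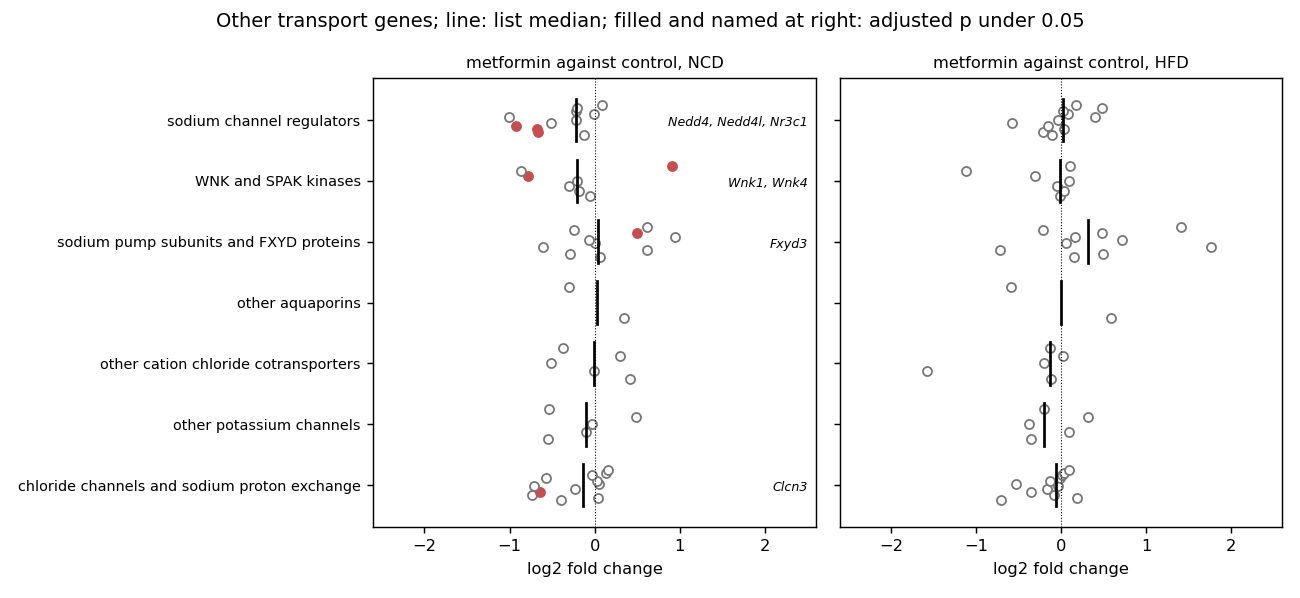
Log2 fold change of the 52 tested transport genes by list, with metformin against control on NCD and on HFD. Each point is a gene, lines mark list medians, and filled points named at the right have an adjusted p under 0.05: 7 on NCD and 0 on HFD.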

How the data were processed

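Per the labels' protocols, RNA of whole glands (Qiagen RNeasy Mini Kit) went into NEBNext Ultra II Directional libraries. The deposited files list 58204 transcripts, each with its estimated count and its TPM (scaled by the authors' tool to effective length), in Salmon's layout per the file headers. Salmon 1.3.0, DESeq2 1.28.1 and GRCm38.p6 are named, per the submitters' processing notes. Strand options: not given in the sources used here, so antisense overlaps cannot be told apart. Listed lengths were coding lengths, within 3 bases, for 56929 of 56929 same-version transcripts of GENCODE M21, so reads from untranslated regions were not measured.

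Estimated counts were summed to 22196 genes of GENCODE M21 (57452 transcripts matched, 752 with 0.165 to 0.218% of counts did not) and rounded. Library totals were 8649316 to 39156617. Floors cover counting error alone, because these reads carry no molecular identifiers and are not independent molecules. The lowest chi-square per degree of freedom over 120 pairs of libraries was 12.54, so no library looked deposited again.

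The main test was the quasi-likelihood test of edgeR 4.0.16 (R 4.3.3) with 4 group means over all 16 libraries, TMM scaling and filterByExpr, two-sided, with Benjamini-Hochberg adjustment over 12506 genes in each of 7 contrasts. Alternatives were library size scaling, milk and mitochondrial genes left out of scaling, no filter, DESeq2 1.42.0, only the groups compared, counts rebuilt from TPM, a term for the gap in title numbers, and leaving out each library. Within-group relations used 100000 permutations of libraries within groups over 108 relations. The fit was tested on simulated data. The members and gene lists were chosen with earlier results of these data known. All 9 members are named, with called genes of the other lists, or up to 2 of lowest p where none was called, and the 3 genes most like each member.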

Additional observations from a re-analysis of the deposited data

Results flagged for a closer look

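Among 36 groups of 4 libraries (9 genes by 4 groups), 4 held a library whose distance from its nearest neighbour exceeded Dixon's critical share of the group's range. Chance flags about 1 in 20 groups. Kcnk5 was at 198 CPM in NCD metformin 2, where the other 3 libraries of the group were at 46.1 to 54.7 CPM. Scnn1g was at 3.79 CPM in HFD control 4, the shallowest library, beside 1.71 to 1.96 CPM in the others. HFD control 3 was the high library for Aqp1, at 40 CPM beside 33.9 to 34.5, and for Atp1b1, at 1.36 CPM beside 0.893 to 0.965. Both of these values in that library lay within the range of the same gene in the other groups. HFD control 4 also had the lowest luminal marker score (4.2), and NCD metformin 3, with the next lowest (4.33), had the highest Scnn1g of its group, 3.3 CPM. Elf5, 1 of the 8 genes of that score, was not detected in either library. The summed CPM of the 8 genes was 394 and 395 in them, and 438 to 570 in the others. With group means removed, Scnn1g and that score had an r of -0.78 over 16 libraries (p = 0.042, permutation test, adjusted p = 0.952), a rho of -0.60 (p = 0.0356, adjusted p = 0.986), and an r of -0.33 without these 2 libraries, on which the relation rests. The parts of depth and of the luminal score in the Scnn1g value were not tested.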

How the results depend on the processing

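No paired analysis was possible because the replicate numbers only follow accession order and the labels link no library to one of another group. Of the 7 called values of the 9 genes, 159 of 159 alternative values had the same sign and 100 of 159 kept the call. Over all 8 tested genes and 7 contrasts, 1229 of 1264 alternative values kept the sign, 0 called values reversed, and 14 uncalled values passed the threshold under an alternative. Counts of all genes called moved as follows. For HFD against NCD without metformin (8 in the main fit) they were 39 with library size only, 66 with DESeq2 and 5 with the term for the gap in title numbers, and the count of the 9 genes called (1) was 0 with library size only, with only the groups compared and with that term. For HFD against NCD with metformin (295) they were 641 with library size only, 744 with DESeq2, 91 with only the groups compared and 2 with counts rebuilt from TPM, and the members called (1) were 0 with no filter, 3 with DESeq2 and 0 with rebuilt counts. For metformin on NCD (1255) they were 622 with rebuilt counts, and the members called (3) were 0 with only the groups compared and 1 with rebuilt counts. For metformin on HFD (21) they were 7, 160, 1 and 4 with library size only, DESeq2, only the groups compared and rebuilt counts. The interaction (0) gave 22 with DESeq2. Averaged diet (117) gave 1592 with library size only, 468 with DESeq2 and 35 with rebuilt counts, and members called (1) were 2 with DESeq2. Averaged metformin (1424) gave 880 with rebuilt counts, and members called (1) were 0. With library size only the diet split of 2 higher and 6 lower genes without metformin became 2 and 37, with metformin 232 and 63 became 65 and 576, averaged 65 and 52 became 49 and 1543, and the metformin split on NCD of 501 and 754 became 249 and 740. The averaged metformin split of 728 and 696 became 356 and 897. Leaving out a library gave 2 to 13 genes and 0 to 1 members called for diet without metformin, 3 to 384 and 0 to 2 with it, 180 to 1459 and 0 to 4 for metformin on NCD, 3 to 44 and 0 to 0 on HFD, 0 to 1 and 0 to 0 for the interaction, 28 to 180 and 1 to 2 for averaged diet, and 713 to 1503 and 0 to 2 for averaged metformin. The causes were not tested. Depth limits Aqp5, Atp1b1, Scnn1a and Scnn1g most.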
